A study of Mus musculus with 49 samples.

Results

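The 9 genes described here encode structural proteins of central nervous system myelin: Mbp, Mobp, Mal, Cnp, Cldn11, Mag, Mog, Ermn and Opalin. They were chosen by name from 24488 genes in a table of frontal cortex RNA of mice fed a high fat diet, and all 9 were found in it. Of the 49 libraries, 10 came from wild-type (WT) mice after 4 months on the diet, 9 from WT mice after 2 months, and 10 from mice labelled AKO, written out elsewhere in the labels as an amylin knockout, after 4 months. A further 20 came from a line with conditional human amylin, also after 4 months on the diet. Of these, 10 mice had received tamoxifen and 10 had received vehicle, with brains taken 2 months after injection. Amylin is a peptide hormone released by pancreatic beta cells together with insulin. The labels give no age, sex, strain, Cre driver or collection batch, every group was fed the high fat diet, and no group on another diet was analysed here. The labels do not say in words that each library is a separate animal, so a p-value reflects library-to-library spread, which may be partly technical.

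Myelin is the membrane that oligodendrocytes wrap around axons, and it speeds conduction and gives the axon metabolic support. Its inner leaflets are zipped together by basic proteins, while other proteins line the channels of cytoplasm that stay open, seal the edges of the wraps, or hold the membrane to the axon. In the rodent forebrain myelin is dense in the corpus callosum and the striatum and sparser in the upper cortical layers, and it goes on being added in the adult. Most of these transcripts come from mature oligodendrocytes, so in bulk tissue fewer such cells and less RNA per cell cannot be told apart.

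The stretch just upstream of the start of 3 members is shown here because the comparisons below turn on these genes: Mobp and Cldn11 passed the test in the libraries labelled AKO, and Opalin differed most in the vehicle-treated line. The sequences are from RefSeq (GRCm38.p6), read 5′ to 3′ on each gene's own strand. Capitals mark CTTTGT, or ACAAAG as it reads from the other strand, which is the core sequence bound by SOX proteins such as the oligodendrocyte factor SOX10. The coordinates are chr9:120149492-120149706 (plus strand) for Mobp, chr3:31149670-31149919 (plus strand) for Cldn11 and chr19:41077114-41077363 (minus strand) for Opalin.
Mobp: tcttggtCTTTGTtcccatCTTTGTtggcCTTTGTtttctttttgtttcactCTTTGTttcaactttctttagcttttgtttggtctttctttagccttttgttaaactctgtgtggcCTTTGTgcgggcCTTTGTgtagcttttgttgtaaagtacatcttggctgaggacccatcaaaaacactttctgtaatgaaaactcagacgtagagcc
Cldn11: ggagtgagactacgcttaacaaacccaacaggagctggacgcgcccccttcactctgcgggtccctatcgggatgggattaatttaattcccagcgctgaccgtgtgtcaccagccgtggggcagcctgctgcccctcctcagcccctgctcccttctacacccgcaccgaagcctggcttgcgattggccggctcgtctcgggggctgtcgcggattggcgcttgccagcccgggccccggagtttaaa
Opalin: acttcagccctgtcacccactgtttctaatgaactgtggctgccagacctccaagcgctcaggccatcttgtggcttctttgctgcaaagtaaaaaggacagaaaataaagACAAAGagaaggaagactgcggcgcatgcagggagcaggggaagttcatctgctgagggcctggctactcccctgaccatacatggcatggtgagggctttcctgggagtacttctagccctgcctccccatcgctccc
The Mobp stretch leaves out the last 35 bases of its window, which GENCODE M21 counts as part of the gene.

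In GENCODE M21 (GRCm38) the Mobp gene spans chr9:120149707-120181484, Cldn11 chr3:31149920-31164324 and Opalin chr19:41061710-41077113. Promoter windows of 250 bases were matched for 8 of the 9 members, and Mbp is named only. Mobp held 6 matches to CTTTGT, none overlapping another, the farthest starting 243 bases and the nearest 120 bases upstream of the RefSeq start. Of 32851 such windows in the mouse genome 16.5% held at least 1 match on either strand, and only the Mobp window reached 6. Opalin and Cnp held 1 each, and none was found for Cldn11, Mal, Mog or Ermn. Of the 3 Mag windows 2 held 1, and these 2 overlap and share the same match. A match describes letters in a window and is not evidence of binding.

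Each library held between 29.2 and 75.6 M recovered reads (M for 1e+06), and values below are the deposited log2(normalised reads + 1). Iapp, the gene for mouse amylin, had reads in 10 of 10 libraries labelled AKO (596 reads, 5.76 ± 0.18, SD, n = 10). It had 0 reads in each WT group and with tamoxifen and 1 read with vehicle. Since the WT libraries held none, a loss of Iapp reads could not be seen here. Why the libraries labelled AKO held Iapp reads was not tested, nor was the knockout label. That group is therefore called here "the libraries labelled AKO". The cortical excitatory marker Slc17a7 was high in every library (15.23 to 16.58). The summed level of olfactory bulb markers was highest in vehicle library 3 (15.84), followed by vehicle library 1 (15.27) and tamoxifen library 9 (14.49), against a median of 11.78 over the 49 libraries. Vehicle library 1 also had the lowest mean of the 9 members of all libraries (11.31). That mean was 11.52 in vehicle library 3 and 12.36 in tamoxifen library 9. With group means removed, the bulb level correlated with the members' mean z-score over the 49 libraries at r = -0.23. Without the 2 farthest libraries r was -0.09. Pmp2, a protein of peripheral myelin, had 25 reads over all 49 libraries together.

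All 9 members were abundant, and all passed the filter on low values in every comparison. The lowest recovered count of any member in any library was 98 reads, for Opalin in vehicle library 3. Per kilobase of annotated exon, Mbp, which glues the cytoplasmic faces of the membrane together, was the highest in WT mice at 4 months, with a median of 7912 normalised reads per kb. Cnp, the cyclic nucleotide phosphodiesterase of uncompacted myelin, followed at 5092 per kb, and Mal, a proteolipid of membrane trafficking, at 3422 per kb. Cldn11, the claudin that forms tight junctions between wraps, had 2747 and Mag, the adhesion protein facing the axon, 2582 normalised reads per kb. The lowest per kb were Ermn, a late cytoskeletal protein of oligodendrocytes, at 920 and Opalin, a sialylated membrane protein of late oligodendrocytes, at 394. Between them lay Mobp, a basic protein of compact central myelin, at 1923 per kb and Mog, a protein of the outermost lamella, at 1248 per kb.

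Every member had its highest group mean in WT mice at 4 months, its next to lowest with tamoxifen and its lowest with vehicle, with WT mice at 2 months and the libraries labelled AKO between. The mean log2 value of the 9 genes was 12.57 ± 0.09 (SD, n = 10) in WT mice at 4 months and 12.32 ± 0.37 (SD, n = 9) at 2 months. It was 12.35 ± 0.15 in the libraries labelled AKO, 12.13 ± 0.27 with tamoxifen and 11.90 ± 0.41 with vehicle (SD, n = 10 each). In a limma F test over the 5 groups, 9 of 9 members passed at adjusted p 0.05, in a table where 23.2% of genes passed. Adjusted p-values of the 9 ranged from 0.00047 for Ermn to 0.0052 for Cnp.

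**Figure D1:**
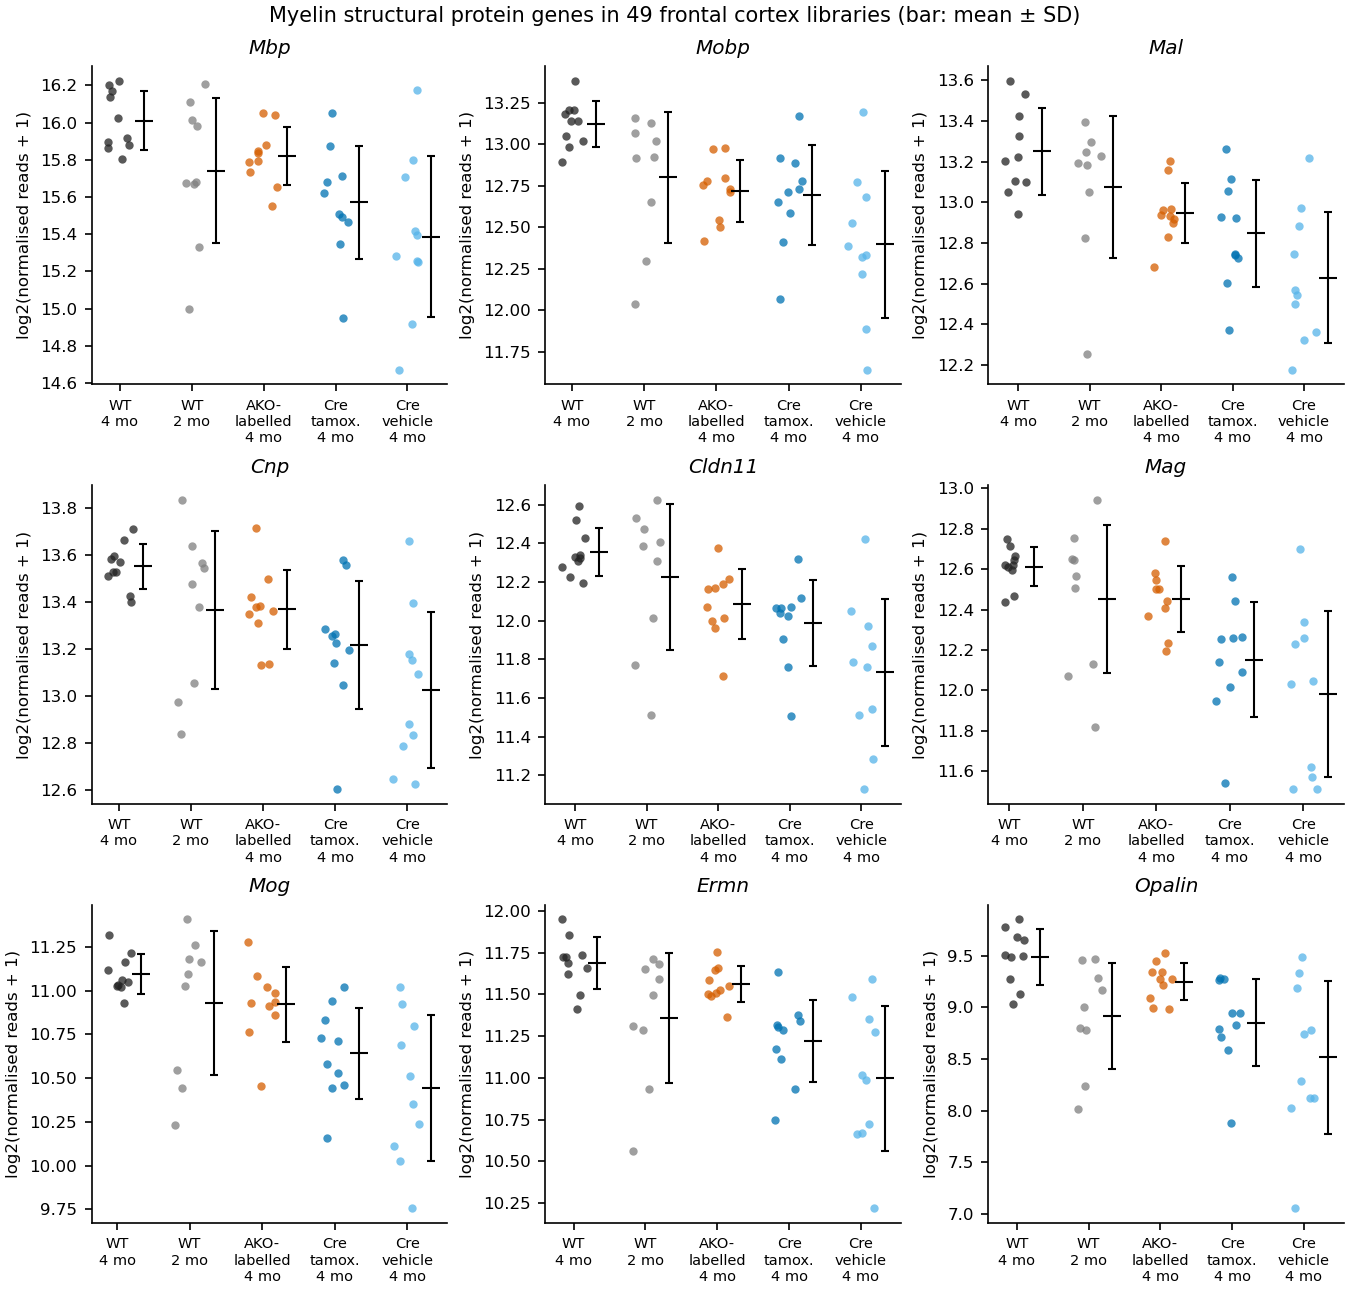
Deposited log2(normalised reads + 1) of each of the 9 genes (y axis, a separate scale per gene) in each library, by group (x axis, mo for months on the diet). Points are libraries, and bars are the group mean ± SD. WT mice at 4 months have the highest mean and the vehicle-treated line the lowest for all 9, and the ranges of all groups overlap.

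The spread of the members was read by group. The median SD over the 9 genes was 0.14 in WT mice at 4 months and 0.17 in the libraries labelled AKO. It was 0.27 with tamoxifen, 0.39 in WT mice at 2 months and 0.42 with vehicle. Low values recurred in the same libraries: tamoxifen library 21 was the lowest of its group for 9 of 9 genes, WT 2-month library 32 for 8, AKO-labelled library 14 for 7 and vehicle library 1 for 7. High values did too, with vehicle library 16 the highest of its group for 9 of 9 genes and tamoxifen library 18 and AKO-labelled library 16 for 8 each.

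When group means were removed, all 36 pairs of members were positively correlated across the 49 libraries. Pearson's r ran from 0.56 for Opalin with Mal to 0.97 for Mag with Cnp, with a median of 0.88, and Spearman's rho from 0.51 to 0.95. Without the 2 libraries farthest from each gene's median, the median r was 0.86. These points share libraries and dissection, so r is a description without a p. Opalin was the member least like the others, with r from 0.56 to 0.83.

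**Figure D2:**
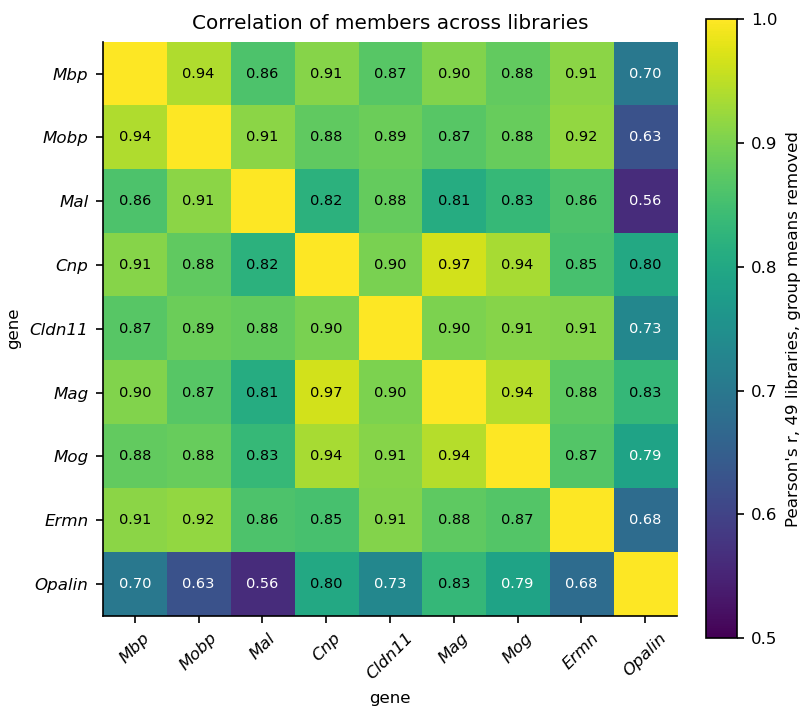
Pearson's r of each pair of the 9 genes (both axes) over 49 libraries after subtracting each group's mean, coloured from 0.5 to 1. The Opalin row is the darkest, down to 0.56 with Mal, while Mag and Cnp reach 0.97.

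Outside the 9 members, the gene whose deviations from the group means were most like their mean z-score was Trf, with r = 0.95 and rho = 0.92 over 49 libraries. Ugt8a (r = 0.93), Tmem88b, Tspan2, Ttyh2, Fa2h and Prr18 (r = 0.91) were also among the 8 most alike of 12682 genes with at least 100 normalised reads. Leaving out the 2 libraries farthest from the median of the members' score gave r between 0.89 and 0.94 for the genes named here.

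The comparison with the largest differences set the vehicle-treated human amylin line against WT mice, both after 4 months on the diet. It asks how the line differs from WT without induction, and line, injection and housing cannot be told apart in it. All 9 of 9 members were lower in the vehicle-treated line by limma at adjusted p 0.05, where 6.17% of 15209 genes passed in either direction. The median log2 difference was -0.63 for the members and 0.00 for all genes tested. Differences ran from -0.53 for Cnp to -0.97 for Opalin.

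Opalin ranged from 9.03 to 9.86 (median 9.50) in the 10 WT libraries and from 7.05 to 9.49 (median 8.51) in the 10 with vehicle. In vehicle-treated mice 7 of 10 libraries lay below the lowest WT library, and the ranges overlapped. Its mean fell by 0.97 on the log2 scale (SE 0.24, 1.96-fold lower, adjusted p = 0.016), the largest difference of the 9. Vehicle library 3, with 98 reads, was the lowest, and library 16 was the highest.

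The transcripts of both basic proteins of the compact membrane fell. Mobp ranged from 12.89 to 13.38 (median 13.14) in WT and from 11.64 to 13.19 (median 12.36) with vehicle, and 9 of 10 vehicle libraries lay below the lowest WT library. It fell by 0.72 (SE 0.14, 1.65-fold lower, adjusted p = 0.0041). Mbp ranged from 15.80 to 16.22 (median 15.97) in WT and from 14.67 to 16.17 (median 15.34) with vehicle, a fall by 0.62 (SE 0.14, adjusted p = 0.0089). Library 16 alone kept its Mbp within the WT range, while the other 9 were below it.

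The surface, junction and late genes fell by 0.53 to 0.69. Transcripts of Mog, the outer lamella protein, fell by 0.65 (SE 0.13) and those of Mag, on the axonal side, by 0.63 (SE 0.13). For each, 9 of 10 vehicle libraries lay below every WT library. Cldn11 fell by 0.62 (SE 0.12) and Mal by 0.62 (SE 0.12), the latter with the smallest adjusted p of the 9, 0.0035. Mal ranged from 12.94 to 13.60 (median 13.21) in WT and from 12.18 to 13.22 (median 12.56) with vehicle, so that 8 of 10 vehicle libraries lay below the WT range. Ermn fell by 0.69 (SE 0.14) and Cnp by 0.53 (SE 0.10).

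For these genes too the vehicle group reached lower and spread wider. Mog ranged from 10.93 to 11.32 (median 11.06) in WT and from 9.76 to 11.02 (median 10.43) with vehicle, and 9 of 10 WT libraries lay above every vehicle library. Mag ranged from 12.44 to 12.75 (median 12.62) in WT and from 11.51 to 12.70 (median 12.04) with vehicle. Cldn11 ranged from 12.19 to 12.59 (median 12.33) in WT and from 11.13 to 12.42 (median 11.77) with vehicle. Vehicle library 16 was the only one to reach into the WT range for Mag and Cldn11. Ermn, which binds actin, ranged from 11.42 to 11.95 (median 11.71) in WT and from 10.22 to 11.59 (median 11.001) with vehicle. Cnp ranged from 13.40 to 13.71 (median 13.55) in WT and from 12.62 to 13.66 (median 12.99) with vehicle.

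These calls held when any of the 20 libraries was left out, with all 9 passing each time. All 9 also passed without vehicle libraries 1 and 3, left out after seeing the data for their olfactory bulb RNA, with differences of -0.45 to -0.73. In that fit 2747 genes passed in all, against 939 with every library. The calls did not hold when WT was represented by 5 libraries: titles number the WT libraries 11 to 15 and 21 to 25, for reasons the labels do not give. With 11 to 15 alone 0 of 9 passed (differences -0.50 to -1.15, lowest adjusted p = 0.091), and with 21 to 25 alone 4 passed, Mobp, Ermn, Mal and Cldn11 (all 9 differed by -0.54 to -0.80). Calls over all genes were 162 with 11 to 15 and 396 with 21 to 25.

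Markers of striatal projection neurons, cells of the region beneath the frontal cortex, were read beside the members. All 10 of 10 listed markers were lower with vehicle than in WT (median -0.85), with 0 past the threshold. Their summed level ranged from 13.70 to 16.36 in WT mice at 4 months, 13.79 to 16.48 at 2 months, 14.76 to 16.50 in the libraries labelled AKO, 13.84 to 16.36 with tamoxifen and 13.78 to 16.08 with vehicle. Of the 10 markers only Isl1 was at 0 reads in any library, in 3 of 49. With group means removed, the summed level correlated with the members' score over 49 libraries at r = 0.75 and rho = 0.80, and at r = 0.78 without the 2 farthest libraries. By group, r with the members' mean was 0.86 in WT mice at 2 months, 0.81 with tamoxifen, 0.80 with vehicle, 0.78 under the AKO label and 0.42 in WT mice at 4 months (n = 9 or 10). The matching rho values ran from 0.52 to 0.93. The comparison with vehicle was refitted with this level as a covariate, an alternative added after seeing the data. All 9 differences were then negative (-0.42 to -0.81), and 8 of 9 members passed by limma. Opalin then had adjusted p = 0.052. Over all genes 650 passed in that fit, against 939 without the covariate. The part of striatal tissue in the members' result was not tested.

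**Figure D3:**
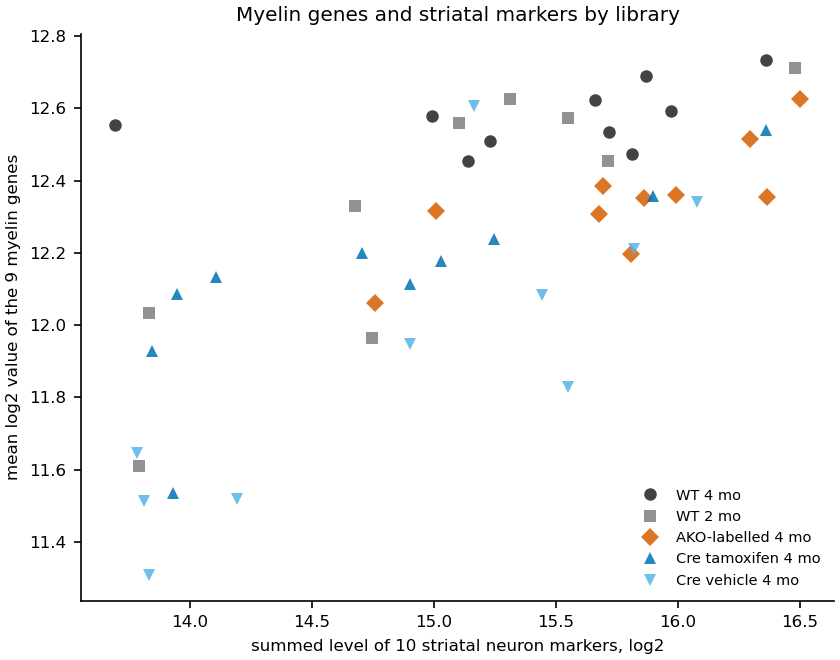
Mean log2 value of the 9 myelin genes (y axis) against the log2 of the summed level of 10 striatal neuron markers (x axis) in each of 49 libraries, with a symbol per group. Libraries with low striatal levels tend to have low myelin values, except WT library 13 at 4 months, the lowest striatal level of all (13.70) with a myelin mean of 12.55.

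Other genes of the myelin pathway were read from lists. Of 22 genes for myelin lipids, iron handling and maturation, 17 fell with vehicle and 0 rose, with a median of -0.52. Ugt8a, the enzyme that makes the myelin lipid galactosylceramide, fell by 0.79 (SE 0.12), Cryab, a small heat shock protein, by 0.62 (SE 0.10) and Qdpr, which regenerates tetrahydrobiopterin, by 0.46 (SE 0.07). Of 14 lineage factors and early-stage genes 5 fell and 0 rose, among them Bcas1 by 0.76 and the transcription factors Olig1 by 0.36 and Olig2 by 0.31. Of 8 precursor genes C1ql1 fell by 0.47 and none rose, with a median of -0.02. Of 10 axonal and nodal partners of myelin none passed by limma, and 1 had an unadjusted p under 0.05 (median -0.06).

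Of 6 excitatory neuron markers 3 were lower and 3 higher with vehicle (median -0.01). Most markers of astrocytes, endothelium and microglia had lower means with vehicle. Of 8 astrocyte markers all 8 were lower (median -0.12), 0 passed by limma and 4 had an unadjusted p under 0.05. Of 6 endothelial markers 5 were lower (median -0.22), and Pecam1, an adhesion protein of vessel walls, fell by 0.25 (adjusted p = 0.033). Of 8 microglial markers 7 were lower (median -0.03), and C1qb, a complement subunit, fell by 0.11 (adjusted p = 0.048). Their summed log2 levels in WT and with vehicle ran from 17.33 to 17.50 and 17.26 to 17.53 for astrocytes, 13.07 to 13.31 and 12.74 to 13.23 for endothelium, and 14.16 to 14.35 and 14.01 to 14.51 for microglia. The part of these cells in the members' result was not tested.

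Tamoxifen and vehicle were compared within the human amylin line, which bears on the induction of the transgene. None of the 9 members passed, as none of 15223 genes did (0%), and 500 genes had an unadjusted p under 0.05. All 9 members had higher means with tamoxifen, by 0.17 for Mag to 0.34 for Opalin (median 0.22, against 0.00 for all genes). The 95% interval for Mbp ran from -0.14 to 0.51, that for Mobp from -0.04 to 0.63 and that for Opalin from -0.19 to 0.86, and the intervals of all 9 included 0. Mobp ranged from 12.06 to 13.17 (median 12.72) with tamoxifen and from 11.64 to 13.19 (median 12.36) with vehicle, and both ends of the vehicle range lay outside that of tamoxifen. Leaving out any library gave 0 calls among the members, and no list had a member past the threshold. Without the 3 libraries highest in olfactory bulb markers, an alternative added after seeing the data, the differences were smaller, 0.03 for Mag to 0.18 for Mobp, and 0.08 for Opalin.

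In the 5-group model of all 49 libraries, tamoxifen-treated mice were also below WT at 4 months for 9 of 9 members (12.3% of 15856 genes passed), by 0.34 for Cnp to 0.64 for Opalin as mean log2 differences. This comparison shares its WT libraries with the one above. Against WT mice at 2 months 0 of 9 passed with tamoxifen (9.6% of genes, 3702 with an unadjusted p under 0.05). With vehicle 4 of 9 passed, each below WT at 2 months (5.13%): Cldn11, Mal, Mag and Mog. Against the libraries labelled AKO 0 of 9 passed with tamoxifen (9.46%, 3926 genes with an unadjusted p under 0.05). With vehicle 6 of 9 passed, each below the libraries labelled AKO (9.02%): Ermn, Mag, Mog, Opalin, Mbp and Cnp. The libraries labelled AKO and WT at 2 months did not differ past the threshold for any member (0 of 9, 11.7%, with 4405 genes at an unadjusted p under 0.05). No 2 groups adjacent in the order of a gene's means were told apart for any member in this model.

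The libraries labelled AKO were compared with WT at the same 4 months on the diet, the study's test of amylin loss as far as the label goes. All 9 members had lower means under the AKO label: their median difference was -0.19, and that of all genes 0.01. Mobp and Cldn11 passed, 2 of 9, where 0.785% of 15278 genes passed in either direction. The WT libraries are those of the comparison with vehicle, so the 2 sets of differences are not independent.

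Mobp ranged from 12.89 to 13.38 (median 13.14) in WT and from 12.42 to 12.98 (median 12.74) in the libraries labelled AKO. Of the latter 8 of 10 lay below the lowest WT library, 9 of 10 WT libraries lay above the highest of them, and the ranges overlapped narrowly. The fall was 0.40 (SE 0.07, 1.32-fold lower), that is -0.40 with a 95% interval of -0.54 to -0.26, at adjusted p = 0.0030. It passed in each of 20 fits without 1 library (adjusted p 0.0014 to 0.0089). It did not pass when WT was libraries 11 to 15 (-0.32, adjusted p = 0.068) or when all 49 libraries set the spread (adjusted p = 0.24).

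Cldn11 ranged from 12.19 to 12.59 (median 12.33) in WT and from 11.71 to 12.38 (median 12.12) in the libraries labelled AKO, 8 of 10 of which were below the lowest WT library. It fell by 0.27 (SE 0.06, 1.20-fold lower, adjusted p = 0.048). This call was at the threshold, and in 17 of 20 fits without 1 library it did not pass (adjusted p up to 0.092, differences -0.23 to -0.30). It passed without WT library 12, WT library 15 or AKO-labelled library 16. With WT libraries 11 to 15 its adjusted p was 0.21, and with 21 to 25 it was 0.053.

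The other 7 members did not pass. Mal differed by -0.30 (SE 0.08, adjusted p = 0.068), with 6 of 10 libraries labelled AKO below the WT range, and passed when either AKO-labelled library 16 or WT library 11 was left out. Opalin differed by -0.24, Mbp by -0.19, Cnp by -0.18, Mog by -0.17, Mag by -0.16 and Ermn by -0.13, with adjusted p from 0.14 to 0.30. Which members passed varied with the WT libraries used. With WT libraries 11 to 15 Opalin alone passed (-0.41, adjusted p = 0.032), while with 21 to 25 it differed by -0.06 (adjusted p = 0.85). With 21 to 25 Mobp (-0.48, adjusted p = 0.0079) and Mal (-0.42, adjusted p = 0.020) passed. Leaving out AKO-labelled library 16, the highest of its group for 8 members, gave the most calls, 4 of 9.

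The standing of Mobp among the members was read as well. Its log2 value minus the mean of the other 8 was 0.61 ± 0.10 in WT mice at 4 months and 0.42 ± 0.10 in the libraries labelled AKO, against 0.63 ± 0.10 with tamoxifen and 0.56 ± 0.17 with vehicle (SD, n = 10 each). It was 0.54 ± 0.13 in WT mice at 2 months (SD, n = 9). These values describe a gene picked for its difference and carry no test. The AKO-labelled group had the lowest of the 5 means.

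**Figure D4:**
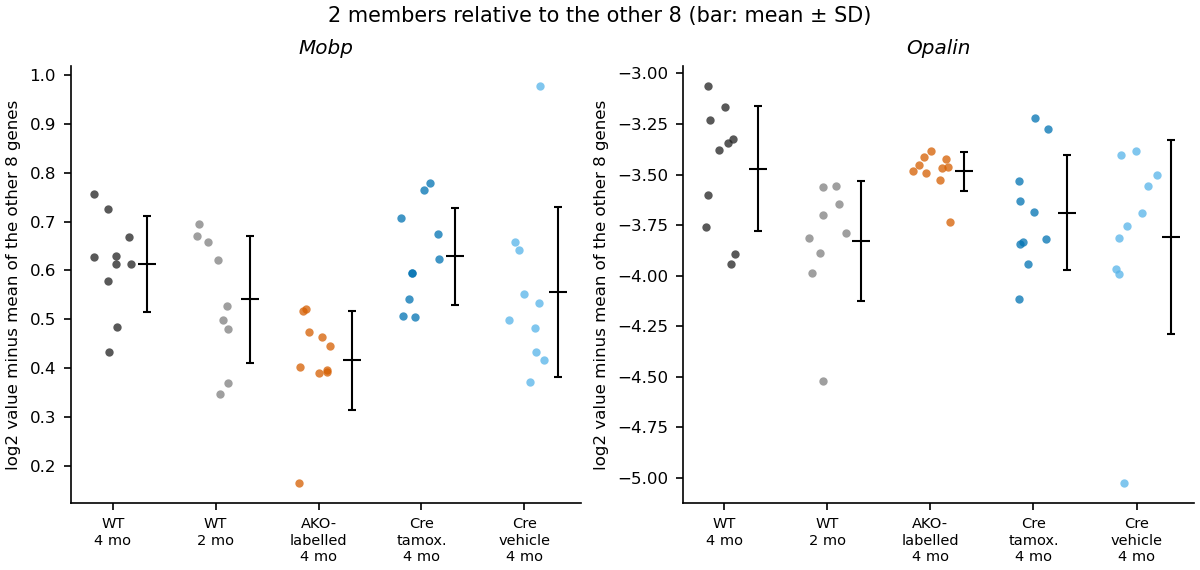
Log2 value of Mobp (left) and Opalin (right) minus the mean log2 value of the other 8 myelin genes (y axis) in each library, by group (x axis, mo for months on the diet). Bars are the group mean ± SD; the libraries labelled AKO have the lowest Mobp mean (0.42), and WT mice at 2 months the lowest Opalin mean (-3.83).

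Marker levels of neighbouring tissues in the libraries labelled AKO were as follows. The 10 striatal markers were all higher than in WT (median 0.42, 0 past the threshold), and the 9 members had lower means. With the striatal level as a covariate, an alternative added after seeing the data, all 9 members had negative differences, from -0.17 to -0.45. Of these 5 passed by limma: Mobp at -0.45 (adjusted p = 0.00014), Cldn11 at -0.32, Mal at -0.34, Mbp at -0.25 and Cnp at -0.22. Over all genes 141 passed in that fit, against 120 without the covariate. The part of striatal tissue in the members' result was not tested. Olfactory mucosa markers ranged in summed level from 4.46 to 13.53 under the AKO label and from 5.70 to 10.26 in WT. Without the AKO-labelled libraries 14 and 19, chosen after seeing the data for their mucosa RNA, Mobp still passed (-0.34, adjusted p = 0.012) and Cldn11 did not (-0.21, adjusted p = 0.12). That fit gave 62 calls over all genes.

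Of the 22 myelin lipid, iron and maturation genes 2 fell in the libraries labelled AKO, Gjc3, a gap junction protein, by 0.17 and Cryab by 0.26, and 0 rose (median -0.15). None of the 14 lineage genes, 8 precursor genes or 10 axonal and nodal genes passed by limma, with 7, 1 and 3 at an unadjusted p under 0.05. None of the 8 astrocyte, 8 microglial or 6 endothelial markers passed either, with 1, 3 and 2 at an unadjusted p under 0.05. The 8 immediate early genes, which mark recent neuronal activity, all fell in these libraries (median -1.20), and their part in the result for Mobp was not tested.

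Whether the AKO label and tamoxifen had different effects was tested as a contrast over the 4 groups involved. None of the 9 members passed (0.0382% of 15701 genes did, and 886 had an unadjusted p under 0.05). The estimates were all negative, from -0.33 for Mag to -0.70 for Mobp (SE 0.18, adjusted p = 0.28).

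WT mice after 4 and after 2 months on the diet differ in time on the diet, and the labels give no ages, so time and age cannot be told apart. Opalin was the only member past the threshold, 1 of 9, where 8.7% of 15222 genes passed in either direction, and all 9 members had higher means at 4 months (median 0.18, against 0.00 for all genes). Opalin ranged from 8.02 to 9.47 (median 9.0) at 2 months and from 9.03 to 9.86 (median 9.50) at 4 months, and 5 of 9 libraries at 2 months lay below every library at 4 months. It rose by 0.58 (SE 0.17, 1.49-fold, adjusted p = 0.044 by limma). The call passed in 6 of 19 fits without 1 library (adjusted p 0.016 to 0.084), those without WT 4-month library 21 or 24 or 2-month library 33, 34, 37 or 40, and not with WT libraries 21 to 25 alone (0.40, adjusted p = 0.37).

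Ermn differed by 0.33 and Mobp by 0.32, with limma adjusted p = 0.099 and 0.11, and the other 6 members by 0.13 to 0.27. Mbp ranged from 14.9985 to 16.21 (median 15.68) at 2 months and from 15.80 to 16.22 (median 15.97) at 4 months. The tops of the 2 ranges nearly coincided, while 5 of 9 at 2 months lay below the range at 4 months. Libraries 32, 35 and 36 were the 3 lowest at 2 months for every member but Opalin and Mal.

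In the same comparison 4 of the 22 myelin lipid, iron and maturation genes rose and 0 fell (median 0.27). Among them were Apod, a lipid carrier, by 0.45, Plekhb1 by 0.35 and Qdpr by 0.27. The precursor gene C1ql1 rose by 0.47, the only 1 of 8. Of 14 lineage genes and 10 axonal and nodal genes none passed by limma, with 6 and 3 at an unadjusted p under 0.05. The 10 striatal markers were higher at 4 months in 10 of 10 (median 0.51, 0 past the threshold). With their level as a covariate Opalin differed by 0.48 (adjusted p = 0.076 by limma) and 0 members passed. Over all genes 1116 passed in that fit, against 1324 without the covariate. Peripheral myelin genes gave 0 calls in any of the 4 comparisons by limma, with at most 1 gene at an unadjusted p under 0.05.

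Markers of microglia, astrocytes and endothelium, like the members, had higher means at 4 months. All 8 microglial markers were higher and 6 rose (median 0.21), among them the integrin Itgam by 0.26, the purine receptor P2ry12 by 0.26 and the chemokine receptor Cx3cr1 by 0.21. All 8 astrocyte markers were higher and 5 rose (median 0.17), among them the gap junction protein Gja1 by 0.28, the calcium-binding protein S100b by 0.18 and the water channel Aqp4 by 0.34. All 6 endothelial markers were higher and 2 rose (median 0.24), Pecam1 by 0.26 and Cdh5, the cadherin of vessel walls, by 0.24. Of 6 excitatory neuron markers 5 were lower (median -0.24), and Slc17a7 fell by 0.20 (adjusted p = 0.049 by limma). Summed log2 levels at 2 and at 4 months ran from 14.03 to 14.30 and 14.16 to 14.35 for microglia, 17.24 to 17.41 and 17.33 to 17.50 for astrocytes, and 12.84 to 13.10 and 13.07 to 13.31 for endothelium. The part of these cells in the result for Opalin was not tested.

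**Figure D5:**
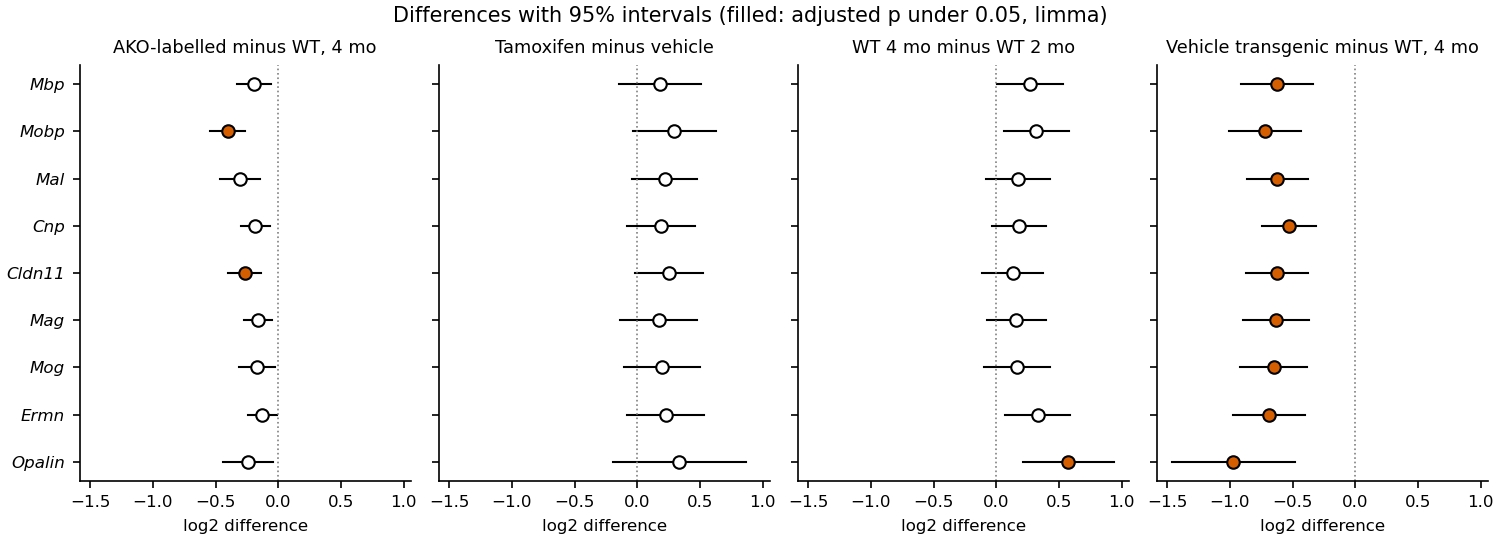
Log2 difference (x axis) of each of the 9 genes (y axis) in the 4 comparisons, with the 95% interval of the limma fit as a line and filled points where adjusted p was under 0.05. All 9 are filled for the vehicle-treated line against WT, Mobp and Cldn11 for the libraries labelled AKO, Opalin for WT at 4 against 2 months and none for tamoxifen against vehicle.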

How the data were processed

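RNA of frontal cortex was sequenced from Illumina TruSeq Stranded mRNA libraries, per the labels' protocols. The authors deposited 1 table of log2 values; its aligner, counter, strand setting and genome build are named in no source used here. From the values, each is log2(read count / size factor + 1), since 99.92% to 100% of low values per library came out as whole reads (within 0.1). Of 50 value columns 1 matched no sample and was not used; 7 genes whose values were not whole reads were left out. Positions are from GENCODE M21 (GRCm38).

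Libraries were grouped by title. A gene needed 10 reads (scaled to the median depth) in a number of libraries equal to the smaller group, and 15 reads in total. Such genes were tested with limma 3.58.1 (R 4.3.3; trend and robust) on the deposited log2 values of the groups compared, two-sided, with Benjamini-Hochberg adjustment over all genes tested. The F test and the other pairs of groups used all 49 libraries. The fit was tested on simulated data. Differences are on that log2 scale, with its pseudocount of 1. Means, SDs and correlations used Python 3.11.15.

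Besides the 9 members, the text names up to 3 genes per list past the threshold in a comparison with the smallest p, and the 8 genes most like the members; items withheld for evaluation are not reported here. Genes named outside this rule (Iapp, Slc17a7, Isl1 and Pmp2) were chosen after their values were seen. The members and lists were chosen with earlier results of these data known. Alternatives were limma-voom, other pseudocounts, filters and scalings, other sets of libraries, and each library left out.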

Additional observations from a re-analysis of the deposited data

Results flagged for a closer look

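Among the 45 combinations of member and group, 2 had a library far from the rest of its group, and chance flags about 1 in 20 groups. Opalin in tamoxifen library 21 was 7.88 on the log2 scale (184 reads), below the next library of its group at 8.58. Mal in WT 2-month library 32 was 12.26 (3925 reads), below the next at 12.82. Both libraries were the lowest of their group for most of the other members as well.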

How the results depend on the processing

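No alternative reversed a member's direction in any of 1134 refitted differences. Tamoxifen against vehicle gave 0 members in every alternative, and the F test (9) and the AKO effect minus the tamoxifen effect (0) gave the same counts with limma-voom. In the libraries labelled AKO, where 2 members passed, 1 passed, Mobp, with limma-voom, without a filter, with library total scaling, with quantile normalization and without AKO-labelled libraries 14 and 19. With WT libraries 11 to 15 only 1 passed, Opalin, which had not passed before, and neither Mobp nor Cldn11 did. With 21 to 25 only 2 passed, Mobp and Mal. None (0) passed with the spread of all 49 libraries, 5 with the striatal level as a covariate, and 1 to 4 when each library was left out. In WT at 4 against 2 months, where 1 member passed, 0 passed with limma-voom, without a filter, with all 49 libraries, with the striatal covariate or with WT libraries 21 to 25 only, and 0 to 1 when each library was left out. In the vehicle-treated line against WT, 0 of 9 passed with WT libraries 11 to 15 only and 4 with 21 to 25 only. Each of these last fits used 5 WT libraries, and the cause of the change was not tested. Over all genes, the call count for the libraries labelled AKO was 120, with 50 from all 49 libraries and 62 (without AKO-labelled library 8) to 206 (without 15) when each library was left out. With WT libraries 11 to 15 only it was 137, and with 21 to 25 only 156. For WT at 4 against 2 months it was 1324, with 36 from WT libraries 21 to 25 only, 848 from all 49 libraries and 769 (without WT library 12) to 2846 (without 2-month library 37). For vehicle against WT it was 939, with 162 and 396 from the WT libraries 11 to 15 and 21 to 25, 651 to 1493 without 1 library, the last without vehicle library 3, and 2747 without vehicle libraries 1 and 3. The libraries labelled AKO and WT share 5 title numbers. Fitted with the number as a replicate block, 0 members and 12 genes passed, against 13 genes in the same libraries without the block. Same-numbered libraries did not deviate together (r from -0.28 to 0.12). With 5 pairs this cannot show that nothing else is shared, and the labels do not say what the numbers stand for.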
